A study of Mus musculus with 4 samples.

Results

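The cells described here are the *Des*-rich cells of mouse dorsal skin and cheek, found by counting transcripts in place. Xenium detects single transcripts of a fixed gene panel with probes inside a tissue section, and gives them to cells whose outlines an algorithm draws. Members were selected on their own transcript counts: a cell was taken if it held at least 10 transcripts, at least 4 of them from *Des*, and 0 from *Myh11*, *Acta2* and *Cnn1*. These 3 genes mark smooth muscle, and a further 5209 cells that held *Des* together with them were left out. There were 32573 members among 426792 cells with at least 10 transcripts. Of these, 4564 of 41797 cells lay in Control skin, 7227 of 198752 in PITX1+ skin, 18199 of 62422 in buccal mucosa, 434 of 18276 in a Control wound and 2110 of 105157 in PITX1+ wounds, and the other 39 lay in a buccal fragment outside the sections. Because *Des* chose the cells, its level in them is not a result.

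The mice were littermates that carried TRE-*Pitx1* and *Krt5*-rtTA. Control mice had normal chow, and PITX1+ mice had chow with doxycycline, started in telogen, which switches on *Pitx1* in cells that use the *Krt5* promoter. The transgene is therefore driven in keratinocytes and not in muscle. There were 3 Control and 4 PITX1+ sections of unwounded skin (Control 1 and 2 and PITX1+ 1 and 2 female, Control 3 and PITX1+ 3 and 4 male), 7 sections of buccal mucosa from untreated mice of both sexes, and on day 4 after wounding 1 Control and 2 PITX1+ sections of male skin. The labels name both conditions for each skin slide but not for each section, so the condition was taken from the order of the sections on the slide. The study's legends count as many skin and buccal samples as there are unwounded sections, but the labels do not tie sections to animals, so p-values measure the spread between sections.

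Desmin is the intermediate filament that ties the contractile units of muscle to each other, to the nuclei and to the membrane. In mouse dorsal skin a thin sheet of skeletal muscle, the panniculus carnosus, runs below the dermis and the fat, and in the cheek the buccinator lies below the mucosa. A skeletal muscle fibre is long and holds many nuclei near its edge, and small satellite cells beside it rebuild fibres after injury.

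The panel held no other gene that defines skeletal muscle, so the label rested on *Des* and on the smooth muscle genes being at 0. *Pitx1*, the induced gene, was read in cells with keratinocyte markers. It stood at 59.8 and 52.7 CPM (transcript counts scaled to the same total in each section) in the female Control sections against 47.8 and 79.6 in the female PITX1+ sections, and at 13.5 against 1082 and 873 in the male ones. The female PITX1+ sections were thus not clearly above their Controls, and the main comparisons with PITX1+ skin are also given without the female slide. The depth per section ran from 474847 to 749248 transcripts for Control, from 2832562 to 5581930 for PITX1+ and from 136365 to 2368603 for buccal mucosa, with a median of 26 to 128 transcripts per member in unwounded tissue. The slides also differed in many genes of these cells. *Cd63*, a membrane protein of endosomes, read 3273 to 5143 CPM in the 4 female sections and 26244 to 29936 in the 3 male ones, in both conditions, and 23452 to 32500.1 in buccal mucosa. CPM were scaled to the total of the 324 panel genes that the rule did not use, and levels of different genes cannot be compared since their probes differ.

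*Des*-rich cells were a larger part of the cheek than of the skin. They made up 11.2%, 9.90% and 11.5% of cells in Control skin, 2.42%, 2.06%, 4.54% and 9.13% in PITX1+ skin, and between 10.4% (Buccal 6) and 35.3%, with a median of 29.7%, in buccal mucosa. PITX1+ and Control sections did not overlap, with a mean difference of −6.33 percentage points, but the two-sided exact permutation test gave p = 0.0571, the smallest it can give for 4 sections against 3 (Benjamini-Hochberg adjusted p over 3 comparisons 0.0571). With a minimum of 8 *Des* transcripts the sections overlapped, and the difference was −4.20 points (exact permutation p = 0.114). Thinned to 20 transcripts per cell they did not overlap, and the difference was −6.95 points (exact permutation p = 0.0571). Under the unchanged rule, without the female slide, the difference was −4.68 points, with 1 Control section and no test. Permutation tests of shares and of counts per mm exchanged sections across slides and left the slide out. Buccal and Control sections differed by 16.3 points (adjusted exact permutation p = 0.0571, and 0.0357 without Buccal 6). Leaving out 1 section at a time gave an adjusted exact permutation p of up to 0.167. The depth moved with this share, at a median of 26 to 32 transcripts per cell in Control and 41 to 125 in buccal sections, and with each cell thinned to 20 transcripts the difference was 8.85 points (adjusted exact permutation p = 0.0667). Buccal and PITX1+ sections differed by 22.6 points (adjusted exact permutation p = 0.0182). This p became 0.05 without any 1 of the PITX1+ sections and 0.0556 without the female slide, where fewer splits are possible. Thinned to 20 transcripts per cell, the difference was 15.8 points (adjusted exact permutation p = 0.0364). A minimum of 8 *Des* transcripts gave 16.5 points (adjusted exact permutation p = 0.0364), and under both settings the sections overlapped.

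Counted per mm along the straight long axis of each section, the skin conditions overlapped. This length does not follow curves or folds of the tissue. Buccal sections spanned 14 to 24 stretches of 0.2 mm on this axis, and unwounded skin sections 50 to 78. Control sections held 142, 94.0 and 146 *Des*-rich cells per mm of section length, and PITX1+ sections held 113, 127, 130 and 164, a difference of 5.96 (exact permutation p = 0.686). Buccal sections held 185 to 1117.5 per mm, with a median of 621, all above the skin (500.2 more than Control, adjusted exact permutation p = 0.025). Against PITX1+ skin without the female slide the difference was 481 per mm (exact permutation p = 0.0556, the smallest it can give). This count was added after the shares had been seen. The density of all cells moved with the share: there were 2194 to 2882 cells per mm² in Control skin and 3994 to 6361 in PITX1+ skin. In the PITX1+ sections the smaller share thus stood beside more cells in all, and no difference per length of skin was detectable with these sections.

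**Figure D1:**
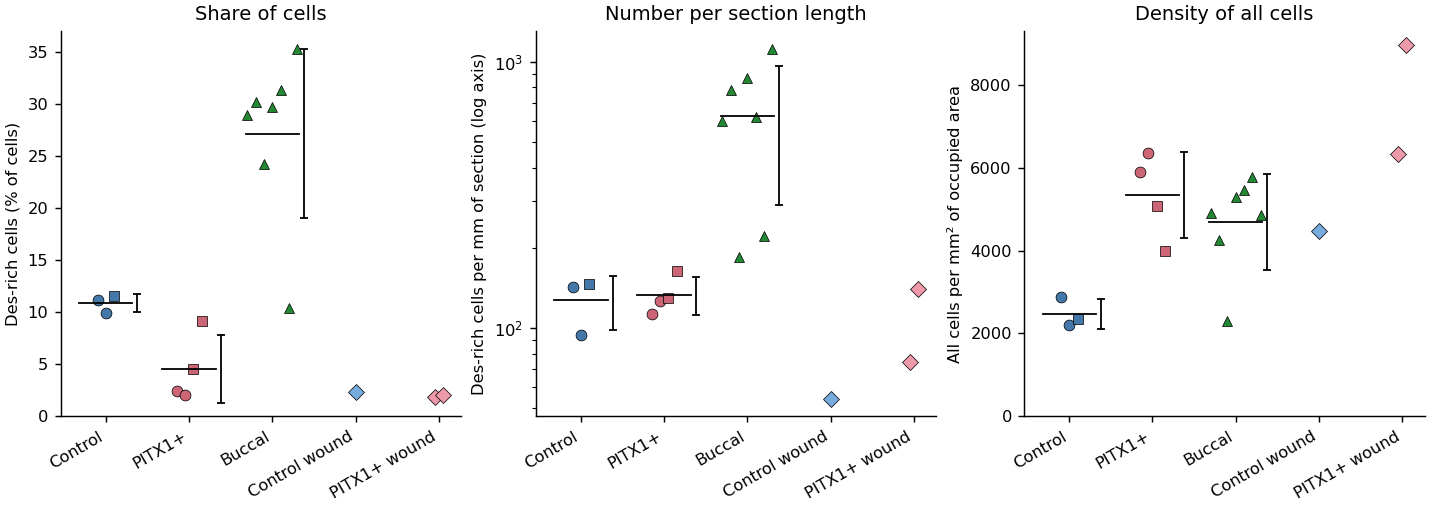
Share of cells that were *Des*-rich (left, %), *Des*-rich cells per mm of section length (middle, log axis) and density of all cells (right, per mm² of occupied area), with 1 point per section (circles female, squares male, triangles cheek, diamonds wounds), a line at the group mean and a bar of 1 SD to each side. PITX1+ sections lie below Control sections in share (2.06% to 9.13% against 9.90% to 11.5%) but overlap them per mm, and PITX1+ skin is denser in cells.

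*Des*-rich cells lay together and away from the epithelium. Among the 6 cells nearest to a member, 61.6% to 73.9% were members in the 14 unwounded sections, far above the share of members in each section, and 50.2%, 50.8% and 50.5% were in the wounds. The median distance from a member to the nearest keratinocyte was 141, 179 and 218 µm in Control skin, 92.5, 134, 96.5 and 131 µm in PITX1+ skin, and 59.3 to 114 µm in buccal mucosa. Members were farther from keratinocytes than the other non-keratinocyte cells in 13 of 13 sections, by 68.2 ± 39.7 µm (SD, n = 13; exact sign-flip permutation test, adjusted p over 16 tests 0.000558). Cells that carried no type by their markers counted as non-keratinocyte, also where they lay within the epithelium. Buccal 3 was left out of this measure since it held 17 keratinocytes. Along the skin the cells formed an almost continuous sheet: 89.6% to 97.1% of 0.2 mm stretches of unwounded skin held at least 5 members, and the longest run of stretches without them, away from the ends, was 0.4 mm.

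The nuclei of *Des*-rich cells were elongated and lay along each other. The median ratio of the long to the short axis of the nucleus was 1.81 to 2.32 in members and 1.48 to 1.97 in other non-keratinocyte cells, higher in 14 of 14 sections, by 0.25 ± 0.16 (SD, n = 14; exact sign-flip permutation test, adjusted p = 0.000326, the smallest it can give). The outline of the whole cell went the other way, with a difference of −0.0768 in the ratio (adjusted p = 0.000326 by the same exact test). How the cell outlines were drawn is not given in the sources used here, and its part in this was not tested. The area per member was 196 to 451 µm² against 96.4 to 375 µm² in other cells. Nuclei of neighbouring members differed in direction by a median of 14.6 to 29.7 degrees in unwounded tissue and by 10.4 to 14.6 degrees in the wounds.

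*Des* transcripts themselves lay away from nuclei, measured against the other genes of the same cells. This is a description, since the rule counted these transcripts. In members 5.17% to 9.96% of *Des* transcripts lay over the nucleus, against 25.3% to 38.5% for other genes, a difference of −23.7 ± 4.09 points with the same sign in 14 of 14 sections. *Des* was also left outside all cell outlines more often than other genes, by 5.02 ± 3.59 points in 14 of 14 sections (exact sign-flip permutation test, adjusted p = 0.000326). In unwounded sections 64.8% to 85.1% of all *Des* transcripts lay in members, and 4.59% to 15.8% in cells left out for their smooth muscle transcripts. A further 1.97% to 16.9% lay in cells with fewer than 10 transcripts or fewer than 4 from *Des*. The rule sets these shares.

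The cells around *Des*-rich cells held fewer keratinocytes than cells farther off, and few other differences held under each way of counting. Other cells within 30 µm of a member were compared with cells farther away, by the markers they carried. Keratinocytes were less frequent nearby in 13 sections, by 38.2 points over all 14 (exact sign-flip permutation test, adjusted p = 0.000732). Buccal 6 was the exception, with 8.19 points more, where 24.5% of its distant cells were keratinocytes and 43.8% had salivary markers. In shares of all cells, endothelial (by 6.66 ± 3.84 points), Schwann (1.76 ± 1.5 points) and smooth muscle and pericyte marker cells (5.31 ± 3.10 points) were each higher nearby in 14 of 14 sections, but a lower share of keratinocytes raises the share of every other type.

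With keratinocytes left out of both shares, a count added after the values had been seen, endothelial cells were 3.87 ± 5.55 points more frequent nearby, higher in 10 of 14 sections and lower in Control 1, PITX1+ 2, Buccal 5 and Buccal 7 (adjusted exact p = 0.0128). Macrophages were higher by 4.28 ± 5.16 points, in all 7 skin sections but in 3 of 7 cheek sections, with Buccal 1, 3, 5 and 7 lower (adjusted exact p = 0.0201), and smooth muscle and pericyte cells, which line vessels, by 3.00 ± 3.38 points, in 13 of 14 (adjusted exact p = 0.0128). Schwann cells, which wrap nerve fibres, did not pass (1.01 points, higher in 11 of 14 sections, adjusted exact p = 0.0751). Fibroblasts, higher nearby in shares of all cells (adjusted exact p = 0.00195), turned to −6.49 points and were lower in 8 of 14 sections (adjusted exact p = 0.140). Cells with adipocyte and sebocyte markers were lower nearby in 13 of 14 sections, by a mean of −4.35 points (adjusted exact p = 0.00183). *Abcc9*, one of the smooth muscle and pericyte markers, was itself high in members, and cells with *Des* and smooth muscle transcripts counted as nearby cells. Among non-keratinocyte cells without *Des*, with *Abcc9* not used as a marker, the smooth muscle and pericyte difference was 0.277 points (adjusted exact p = 0.776) and the endothelial one 1.62 points, higher in 7 of 14 sections (adjusted exact p = 0.378). Macrophages (5.57 points, adjusted exact p = 0.0175), Schwann cells (2.41 points, adjusted exact p = 0.00824) and adipocyte and sebocyte marker cells (−4.35 points, adjusted exact p = 0.00220) passed in that count. In Control and PITX1+ skin, 9.13% to 26.4% of nearby cells had macrophage markers, and in buccal mucosa 1.17% to 4.17%. The depth at which a cell lies moves with these measures, and its part in them was not tested.

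**Figure D2:**
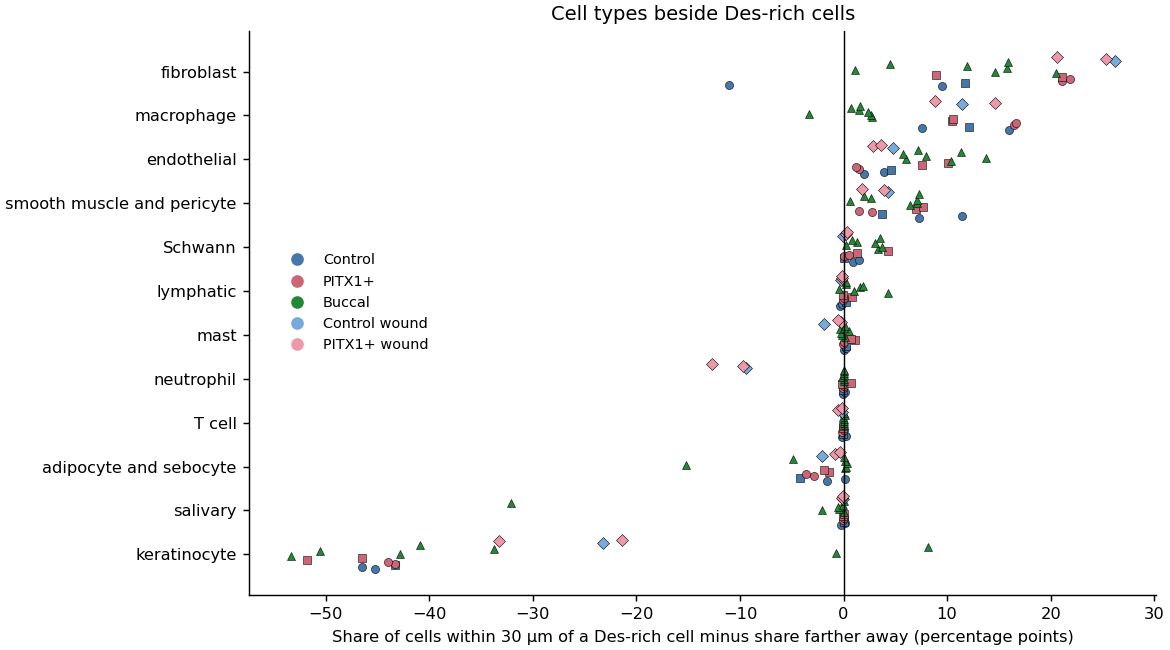
Share of each marker-defined cell type among all cells within 30 µm of a *Des*-rich cell minus its share farther away (x axis, percentage points), 1 point per section, colored by group. Keratinocytes lie below 0 in 13 of 14 unwounded sections, though only slightly in Buccal 3 (0.391% near and 1.12% farther away). A lower share of keratinocytes raises the shares of the other types.

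Beyond *Des*, a set of panel genes was higher in these cells than in the other non-keratinocyte cells of the same section. This is a description with no test, since the rule sorted the same cells. Of 225 genes with a mean of at least 500 CPM in either kind of cell, 23 were higher in members in all 14 unwounded sections and 9 were lower. *Itgb6*, an integrin subunit best known from epithelium, was higher by a median log2 difference of 3.20. *Abcc9*, the regulatory subunit of a potassium channel that senses energy state in muscle, was higher by 2.46 and *Rtn4*, a reticulon that shapes the endoplasmic reticulum, by 2.23. *Barx2*, a homeobox gene known from myogenic progenitors, was higher by 2.21, *Trp63*, best known from basal keratinocytes, by 2.06, and *Ppara*, a nuclear receptor of fatty acid oxidation, by 1.95. *Ncam1*, an adhesion molecule of nerve and muscle contacts, was higher by 1.67, and *Igfbp5*, a binding protein of insulin-like growth factors, by 1.00. *Elovl6* (−2.47), *Vwf* (−1.81) and *Postn* (−1.66), known from lipid synthesis, endothelium and matrix, were among the 9 lower genes.

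**Figure D3:**
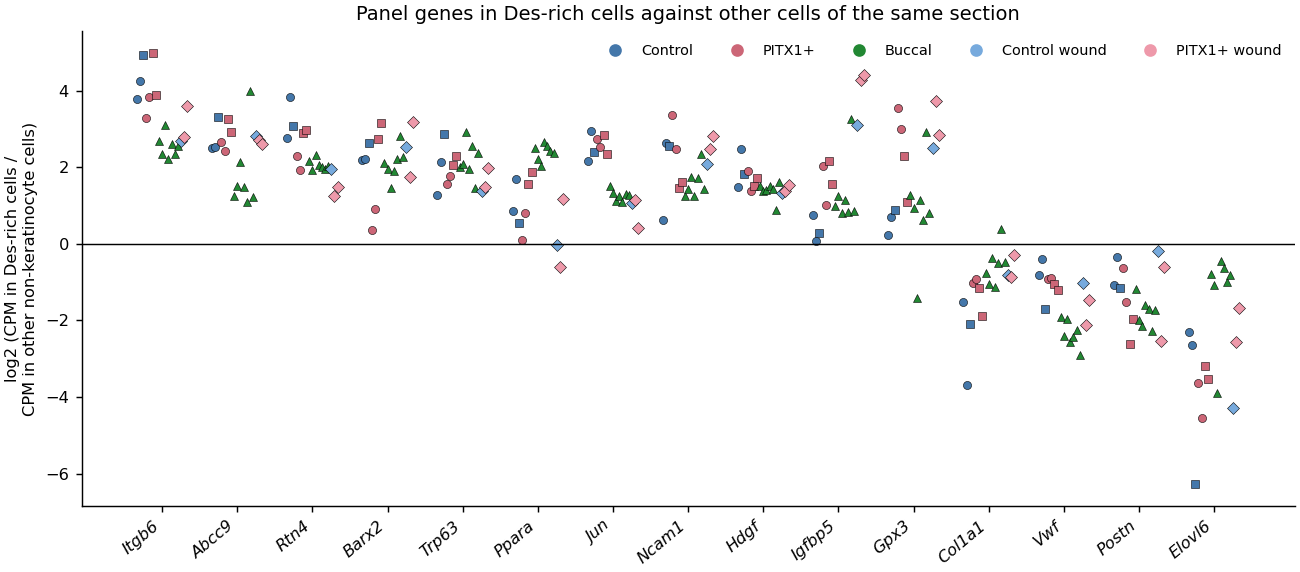
Log2 of CPM in *Des*-rich cells over CPM in the other non-keratinocyte cells of the same section, for panel genes (x axis), 1 point per section, colored by group. *Itgb6*, *Abcc9*, *Rtn4*, *Barx2*, *Trp63* and *Ppara* lie above 0 in all 14 unwounded sections.

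Panel genes with the most transcripts in members after *Des*, which also depends on their probes, included *Igfbp5*, *Rtn4*, *Vim*, *Gpx3* and *Itgb1*. *Rtn4* read 61135, 68824 and 60630.2 CPM in Control skin, 30576, 31959.8, 64534 and 81612 in PITX1+ skin and 60986 to 93210.2 in buccal mucosa. *Barx2* read 3737, 2892 and 8399.8 CPM in Control skin, 1059.7, 866, 7492 and 12530.5 in PITX1+ skin, and 9997 as the median of buccal mucosa, with Buccal 3 at 1129. *Barx2* was lower in each of the 4 female sections than in the 3 male ones, whatever their condition. At the threshold itself, cells with 3 *Des* transcripts, just outside the rule, numbered 2211 over the unwounded sections, those with 4 numbered 1916 and those with 5 numbered 1795. Their nuclei had median axis ratios of 1.87, 1.95 and 1.92, and 43.0%, 51.3% and 55.5% of their 6 neighbours were members. Their median *Rtn4* level was 17491, 26555 and 25697 CPM, higher at 4 than at 3 *Des* transcripts in 14 of 14 unwounded sections, so cells just outside the rule were near those just inside in nuclear shape but not in *Rtn4*.

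Members also held transcripts of other cell types' markers, and their levels differed between tissues. The source of these transcripts was not tested. The fibroblast list (*Col1a1*, *Lum*, *Pdgfra*, *Col14a1*, *Pi16*, *Tnxb*, *Postn*) summed to 59755 to 88253 CPM in members of Control skin, 72674 to 120327 CPM in PITX1+ skin and 25436 to 51516 CPM in buccal mucosa, and 20.8% to 62.0% of members in an unwounded section held at least 2 of its transcripts. The macrophage list (*C1qa*, *Csf1r*, *Mrc1*, *Pf4*, *Ms4a7*, *C3ar1*) summed to 24216 to 47279 CPM in members of Control skin, 21141 to 54410 CPM in PITX1+ skin and 4234 to 7669 CPM in buccal mucosa. The endothelial list (*Pecam1*, *Cdh5*, *Flt1*, *Adgrl4*, *Vwf*) went the other way, with 11210 to 14912 CPM in Control skin, 12070 to 16157 CPM in PITX1+ skin and 24361 to 55776 CPM in buccal mucosa. None of the markers in these 3 lists was at 0 in an unwounded section. The macrophage list stood higher in members than in other non-keratinocyte cells of each unwounded skin section except Control 3 (26087 against 27640 CPM). PITX1+ 1 was nearly equal (47868 against 46179 CPM), and PITX1+ 2 was at 54410 against 33573 CPM. In the cheek the list was lower in members, except in Buccal 6 (4234 against 2868 CPM). Whether this bears on reading members as muscle was not tested. Each comparison of genes between groups was also run on members with no transcript of *Pecam1*, *Cdh5*, *Flt1*, *Col1a1*, *Lum*, *Pdgfra*, *C1qa*, *Csf1r* or *Krt5*, named here members without other markers. No gene of the neutrophil, smooth muscle and pericyte, Schwann, mast or lymphatic lists was in this filter, and *Krt5* was its only keratinocyte gene. A cell with few transcripts meets the filter more easily, and fewer transcripts remain for the test. Whether calls lost under it reflect lower counts was not tested.

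The comparison of cheek with Control skin asks how *Des*-rich cells differ between an oral and a skin muscle. With edgeR's quasi-likelihood test and Benjamini-Hochberg adjustment, 94 of 284 genes tested passed the threshold of 0.05 (33.1%), 43 higher (15.1%) and 51 lower (18%) in buccal mucosa, and the sections did not overlap for 22.2% of genes tested. Scaling by library size in place of TMM gave 34 higher and 66 lower and shifted the median of all genes by −0.36 on the log2 scale. Tissue and slide cannot be told apart here, and 2 of the 3 Control sections lay on the female slide. The number of calls was 53 without Control 1, 57 without Control 2, 176 without Control 3, and 62 without Buccal 4 or without Buccal 5, and 36 of the 94 genes passed in the same direction without each section in turn. Among members without other markers 46 genes passed, of which 38 were among the 94.

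*Ppara* was the clearest of the metabolic genes. It read 859, 1275 and 1055 CPM in Control skin and 3099 to 5158 CPM in buccal mucosa, with a median of 3992, so that every buccal section lay above every Control section. The log2 fold change was 2.30 ± 0.30 (SE; edgeR adjusted p = 0.000300), against 0.58 for the same gene in the other non-keratinocyte cells, and 2.43 among members without other markers (edgeR adjusted p = 0.000258). *Gpx3*, a secreted glutathione peroxidase, went the other way: 49205, 34019.6 and 69529.5 CPM in Control skin and 6892 to 23419 in buccal mucosa, with no overlap (log2 fold change −1.92 ± 0.42, edgeR adjusted p = 0.00644). *Angptl4*, an inhibitor of lipoprotein lipase, was also lower, from 3412, 3627 and 426 CPM to between 134 and 465 CPM (log2 fold change −2.76, edgeR adjusted p = 0.00287), with the male Control 3 within the buccal range. *Rxra*, the partner of *Ppara* on DNA, was lower at −1.73 (edgeR adjusted p = 0.00644), which became 0.0501 without Control 2, the highest section. Of 13 tested genes in the list of nuclear receptors and metabolism, 1 was higher and 4 lower (median log2 fold change −0.06, against −0.03 over all genes tested).

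The lists below are to be read against 15.1% of all genes tested higher, 18% lower and a median of −0.03. In the insulin-like growth factor list, 3 of 10 genes were higher and 1 was lower (median 0.48). *Igf2*, the growth factor itself, read 2089, 1912 and 2146 CPM in Control skin and 3887 to 8212 in buccal mucosa, with a median of 6908. These groups did not overlap (log2 fold change 1.98 ± 0.31, edgeR adjusted p = 0.00142), and the difference was 3.28 in the other non-keratinocyte cells. Among the binding proteins, *Igfbp5* read 66218, 38578 and 15504 CPM in Control skin and 31159 to 138963 in buccal mucosa, with a median of 116374 and Buccal 3 as the lowest (log2 fold change 1.83, edgeR adjusted p = 0.0126, 0.0534 without Control 2). *Igfbp4* rose by 1.68 and *Igfbp3* fell by 1.40 on the log2 scale (edgeR adjusted p = 0.00322 and edgeR adjusted p = 0.00661), the latter with edgeR adjusted p = 0.0603 without Control 3. *Igf2*, *Igfbp4*, *Igfbp5* and *Igfbp3* passed among members without other markers too (edgeR adjusted p = 0.0287, 0.0189, 0.0310 and 0.00111).

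In the BMP and TGF-beta list, 4 of 9 genes were higher in buccal mucosa (*Bmp4*, *Bmpr1a*, *Bmpr2* and *Id3*, a target of BMP signals) and 0 were lower, with a median of 0.94. *Bmp4* read 325, 931 and 944 CPM against 1462 to 2626 (log2 fold change 1.75, edgeR adjusted p = 0.00987), but it gave 0.401 among members without other markers. *Bmpr1a*, a type I receptor, read 1416 and 1275 CPM in the female and 5773 CPM in the male Control section against 7494 to 10165 in buccal mucosa. Its call (edgeR adjusted p = 0.0303) became 0.114 without Control 1 and 0.0882 without Control 2. *Notch1*, from the satellite cell list, was higher by 1.30 (edgeR adjusted p = 0.00644), with 0.768 among members without other markers. In that list 2 of 6 genes were higher, *Notch1* and *Igf2*, and *Fgfr4*, *Ncam1*, *Cd34* and *Sdc4* did not pass. *Fgfr4*, a receptor of satellite cells, read 395, 588 and 499.5 CPM in Control skin against 183 to 705 in buccal mucosa, and the groups overlapped.

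The largest changes among genes without overlap included genes of the epithelium nearby. *Krt4*, a keratin of oral epithelium, read 302, 98.0 and 0 CPM in members of Control skin and 1129 to 11849.6 in buccal mucosa, and *Mt4* and *Krt6a* rose by 4.36 and 3.33 on the log2 scale. *Krt77*, *Krt1* and *Krt75*, keratins of skin and hair, were lower, with 3 of 3 Control sections above all buccal ones. *Krt4* was higher by 4.65 in the other non-keratinocyte cells as well. *Atf3*, a stress-induced transcription factor, read 5501, 5049 and 2738 CPM in Control skin and 99.7 to 363 in buccal mucosa (log2 fold change −3.93 ± 0.34, edgeR adjusted p = 1.66e-05). *Col7a1*, the collagen of anchoring fibrils, read 7474, 12990.2 and 5032 CPM against 274 to 888 (log2 fold change −3.71 ± 0.33, edgeR adjusted p = 1.66e-05). *Adgrl4*, an endothelial receptor, rose by 2.73, and all 5 markers of the endothelial list were higher, though *Vwf* turned to −0.41 among members without other markers. In the macrophage list 5 of 6 markers were lower. In the immediate early and stress list 2 of 9 were higher (*Cebpb*, *Cebpg*) and *Atf3* was lower. In the cytoskeleton and adhesion list 5 of 13 were higher and 2 lower. *Timp3*, an inhibitor of matrix proteases, was among the higher, from 3621, 3676 and 9935 CPM to 17257 to 33285 (log2 fold change 2.03, edgeR adjusted p = 0.00745). In the matrix list 0 of 10 were higher and 2 lower, *Col1a1* and *Tnc*.

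The comparison of PITX1+ with Control skin asks whether muscle below a *Pitx1*-expressing epidermis changes. With slide as covariate, 0 of 302 genes passed in edgeR (0%), 0 in DESeq2 and 31 had an unadjusted edgeR p under 0.05. In simulated counts, edgeR recovered 96.4% of genes changed by 2 on the log2 scale and 46.8% of those changed by 1. The simulation gave every gene the same spread, no difference between slides and the same change in each PITX1+ section. It does not give the share found in real sections, so changes of either size may be missed. Without Control 3, 6 genes passed. Without the female slide 17 passed, 12 higher and 5 lower, in a fit that has 1 Control section and takes its spread from the 2 PITX1+ sections. Among these, *Igfbp5* was at 15504 CPM in Control 3 against 30592 and 37464 CPM in PITX1+ 3 and 4 (log2 fold change 1.08), and *Igfbp3* at 12599.7 against 6639 and 4718 CPM (−1.20). *Cxcl13*, a chemokine of B cells, was at 92.5 against 809 and 817 CPM (3.07), and *Col7a1* at 5032 against 2629 and 1761 CPM (−1.25). *Angptl4* was at 426 against 1381 and 1546 CPM (1.73). *Gpx3* turned from 0.53 over both slides to −0.80. Markers of other cells moved with these genes, and their part in them was not tested. *Flg*, of the epidermis, was at 0 in Control 3 against 132 and 536 CPM, *Itgb4*, of basal keratinocytes, at 240.5 against 800.2 and 1534 CPM, and *Krt17*, a keratin of hair follicles, at 222 against 1134 and 459 CPM. The mast cell genes *Mcpt4* (499.5 against 1978 and 1329.8 CPM) and *Hdc* (0 against 273 and 208 CPM) and the lymphatic gene *Lyve1* passed too.

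The difference between PITX1+ and Control sections changed with the slide for 3 of 302 genes by the interaction term in edgeR. Slide and sex are the same variable. *Pitx1* was not clearly raised in the female PITX1+ sections, and the male slide has only Control 3 to compare with. *Cntfr*, the receptor of ciliary neurotrophic factor in muscle and nerve, read 5013 and 4216 CPM in the female Control sections and 1059.7 and 442 in the female PITX1+ sections, and 1129 against 3825 and 2783 in the male ones. Its log2 difference was −2.35 on the female and 1.63 on the male slide (interaction adjusted p = 0.00900, edgeR). *Mmp3*, a matrix protease, read 1253 and 1667 against 6126 and 5692 CPM on the female slide and 1795 against 1372 and 964 on the male slide (interaction adjusted p = 0.00900, edgeR). *Ccn1*, a matrix signal induced by stretch, had a log2 difference of 1.48 on the female and −0.84 on the male slide (interaction adjusted p = 0.0496, edgeR). *Ncam1* did not pass in either test, at 1601, 4363 and 3534 CPM in Control skin and 11321, 8114, 3245 and 5022 CPM in PITX1+ skin (edgeR adjusted p = 0.271 for PITX1+ against Control). Its 2 highest sections were those of PITX1+ skin on the female slide, where *Pitx1* was not clearly raised.

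Against PITX1+ skin, buccal mucosa differed in 91 of 280 genes (32.5%), 36 higher (12.9%) and 55 lower (19.6%), by edgeR, and the sections did not overlap for 23.6% of genes tested. The buccal sections are the same as in the comparison with Control skin, so the results are not independent of each other. Without the female slide 103 genes passed, 67 of them among the 91, and 42 passed among members without other markers, 30 of them among the 91. *Ppara* read 569, 778, 958 and 2201 CPM in PITX1+ skin, all below the lowest buccal section (log2 fold change 1.93 ± 0.41, edgeR adjusted p = 0.00272, and 1.29 with 0.00955 without the female slide). *Gpx3* read 86870.0, 86634, 44644 and 38143 CPM, all above the highest (−2.29 ± 0.34, edgeR adjusted p = 0.000372, and −1.98 without the female slide), and the other non-keratinocyte cells differed by 0.13. *Igf2* read 930.5, 1273, 2392 and 3854 CPM, below 3887 in the lowest buccal section (1.67, edgeR adjusted p = 0.00968, 0.0773 among members without other markers, and 0.97 on the log2 scale with 0.0260 without the female slide). *Igf1* was lower in buccal mucosa, at 1584 to 2956 CPM against 5066, 5586, 5962 and 4147 CPM (−1.15, edgeR adjusted p = 0.00272, and −1.36 without the female slide).

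Of the lists, 3 of 10 growth factor genes were higher and 2 lower, 2 of 9 BMP and TGF-beta genes were higher (*Bmp4*, *Id3*), and 1 of 13 metabolic genes was higher and 3 lower, where 12.9% of all genes tested were higher and 19.6% lower. *Saa3*, an acute phase protein, had the largest fall, and was read at 16361, 2051, 132 and 169.6 CPM in PITX1+ skin and at 0 to 30.5 CPM in buccal mucosa (edgeR adjusted p = 0.000255). *Cxcl13* (log2 fold change −5.07) and *Krt79*, *Flg* and *Krt1*, genes of skin appendages and epidermis (−4.17, −3.92 and −4.45), fell as well. *Ptn*, *Angptl1* and *Mmrn1* rose by 2.61, 2.20 and 2.33 beside *Krt4* and *Mt4*. *Tnc*, a matrix protein of injured and growing tissue, read 9201 and 6452 CPM in the female and 712 and 871 CPM in the male PITX1+ sections, and its call (edgeR adjusted p = 0.00593) was lost without the female slide (0.339). So, among others, were those of *Igfbp4* (0.42 on the log2 scale, edgeR adjusted p = 0.259), *Id3* (0.69, edgeR adjusted p = 0.0869) and *Arrdc4* (−0.65, edgeR adjusted p = 0.0603). *Saa3*, *Cxcl13*, *Krt79*, *Flg*, *Krt1*, *Ptn*, *Angptl1*, *Mmrn1* and *Bmp4* passed in the same direction there.

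**Figure D4:**
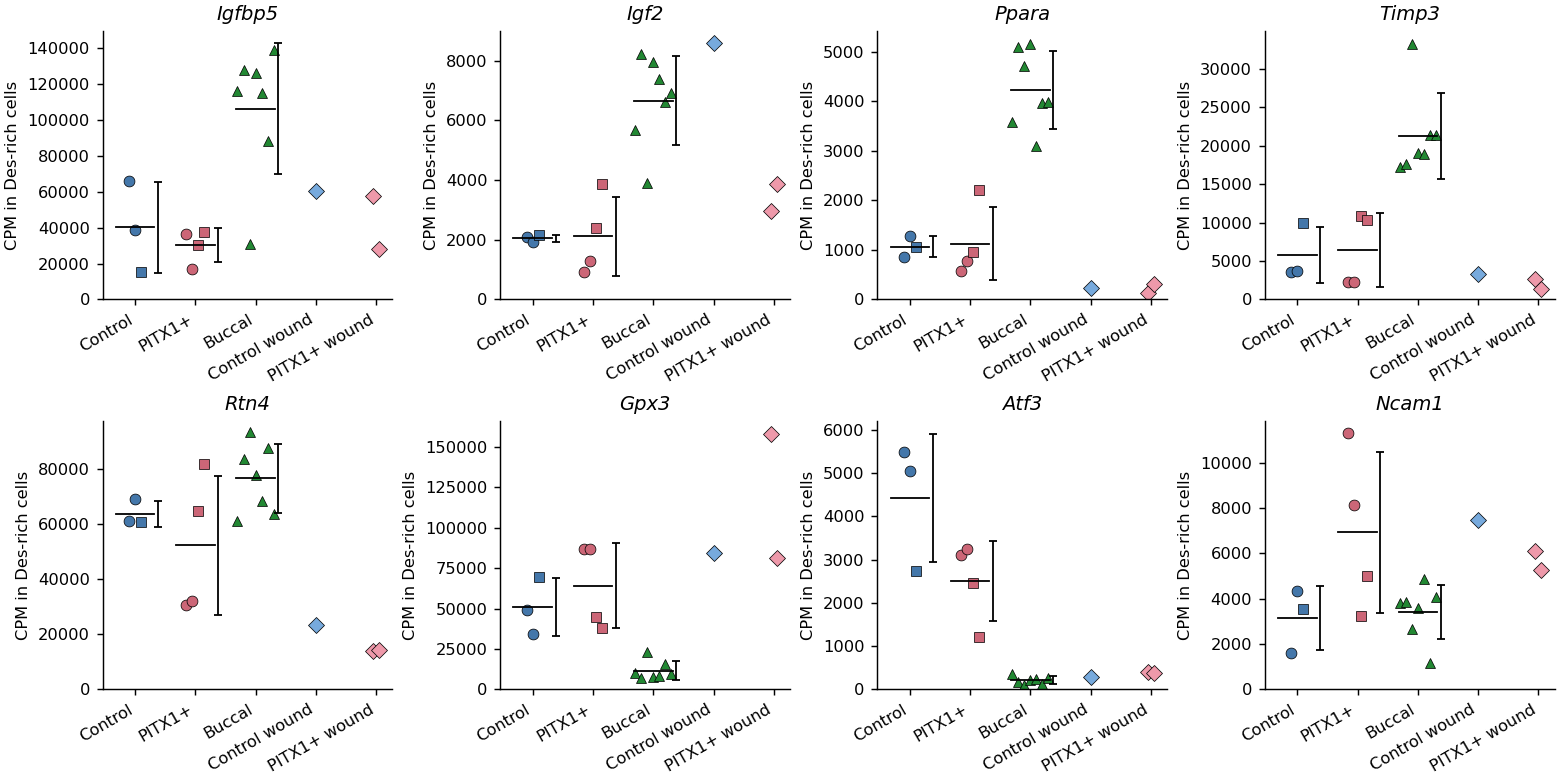
CPM of selected genes in *Des*-rich cells (y axes from 0), 1 point per section (circles female, squares male, triangles cheek, diamonds wounds), a line at the group mean and a bar of 1 SD to each side. *Ppara* and *Igf2* are higher and *Gpx3* is lower in each buccal section than in each unwounded skin section, and *Rtn4* is lowest in the 3 wounds.

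In the wounds the sheet of *Des*-rich cells was broken. The study made full-thickness wounds in the dorsal skin, so a break at the wound is part of the design. In the Control wound 17 of 40 stretches of 0.2 mm held at least 5 members, and a run of 4.2 mm held 6 members in all. In the PITX1+ wounds 27 of 47 and 33 of 50 stretches did, with runs of 3 mm that held 1 and 2 members. Neutrophil marker cells made up 20.9%, 33.2% and 42.7% of cells within these runs and 1.30%, 9.02% and 12.9% outside them. *Des*-rich cells were 2.37%, 1.84% and 2.10% of all cells of the 3 wounds, and 54.3, 74.7 and 141 per mm of length. In the Control wound and PITX1+ wounds 1 and 2, 22.97%, 23.02% and 14.98% of *Des* transcripts lay in cells left out for smooth muscle transcripts. In unwounded sections this was 4.59% to 15.8%. The wounds held 262, 264 and 284 cells with *Des* and smooth muscle transcripts, beside 434, 702 and 1408 members. The part of this rule in the wound shares, counts per mm and broken stretches was not tested. The study left the eschar out of its Xenium analysis. Here all cells of a section with at least 10 transcripts were kept, so the wound shares may include eschar. With 1 Control wound, the conditions were not tested against each other.

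Among the members that remained, PITX1+ wounds were compared with male PITX1+ unwounded skin, where wounding and slide cannot be told apart. By edgeR 91 of 242 genes passed (37.6%), 44 higher (18.2%) and 47 lower (19.4%), and the sections did not overlap for 80.6% of genes tested. Scaling by library size gave 46 higher and 71 lower and shifted the median of all genes by −0.18 on the log2 scale. With 2 sections against 2 the count rested on single sections: it was 0 without PITX1+ 4, 39 without PITX1+ 3 and 140 without PITX1+ wound 1. Among members without other markers 45 genes passed, 38 of them among the 91. The 4 genes of the neutrophil list were all higher in members of the wounds, and the list summed to 10582 and 12622 CPM there against 343 to 905 CPM over the 4 PITX1+ unwounded sections. In the macrophage list *Csf1r* and *Ms4a7* were higher, and *Drp2* and *Ncmap* of the Schwann list and *Flg2*, *Lor* and *Trp63* of the keratinocyte list were lower. At least 2 fibroblast transcripts were held by 59.8% and 62.3% of members of the PITX1+ wounds, and at least 2 macrophage transcripts by 39.6% and 41.3%. The part of these markers in the result was not tested.

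The genes that were higher in members in unwounded tissue were also read in the wounds. Of the 23 genes higher in all 14 unwounded sections, 15 were lower, 1 (*Itgb5*) was higher and 7 did not pass, where 19.4% of all genes tested were lower. PITX1+ 3 and 4 were among the sections that chose these genes, which favours a fall, so the count supports nothing. *Ncam1* (6123 and 5270.1 against 3245 and 5022 CPM) and *Igfbp5* (57549 and 28086 against 30592 and 37464 CPM) were among those that did not pass. *Rtn4* read 64534 and 81612 CPM in PITX1+ 3 and 4 and 13996 and 14269 in the PITX1+ wounds, a log2 fold change of −2.18 ± 0.25 (edgeR adjusted p = 0.00557). It read 23288 CPM in the Control wound. *Itgb6* fell by 1.85, *Barx2* by 2.16, *Abcc9* by 1.64 and *Trp63* by 1.60 on the log2 scale (edgeR adjusted p between 0.00612 and 0.0142). *Rtn4*, *Abcc9*, *Trp63*, *Itgb6* and *Barx2* were lower among members without other markers too (edgeR adjusted p = 0.00466, 0.00681, 0.0158, 0.00481 and 0.0163). These 5 genes are among the 23 and were chosen for the description above, after their values had been seen, so their p-values are no support. *Abcc9* also marks pericytes and *Trp63* keratinocytes, and the filter on other markers held neither gene. *Ppara* read 958 and 2201 CPM against 121 and 307 (−2.67, edgeR adjusted p = 0.0265, and 0.0555 among members without other markers), and 238 in the Control wound. *Gpx3* was higher, at 158227 and 81117 CPM against 44644 and 38143 (1.73 ± 0.41, edgeR adjusted p = 0.0268), with 84342 CPM in the Control wound, and its difference was −0.22 in the other non-keratinocyte cells. Among members without other markers it was 2.97 (edgeR adjusted p = 0.00409).

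Of the lists, 5 of 9 immediate early and stress genes were lower in the wounds (*Atf3*, *Cebpb*, *Cebpg*, *Fos*, *Klf4*) and *Junb* was higher (median −1.29), where 19.4% of all genes tested were lower and 18.2% higher, with a median of −0.02. In the BMP and TGF-beta list *Bmp4*, *Bmpr1a* and *Bmpr2* were lower and *Tgfb1* higher. In the growth factor list *Igf1r* was higher and *Igfbp3* and *Igfbp6* were lower, and *Igf2* did not pass, at 2964 and 3858 against 2392 and 3854 CPM. The largest rises were those of *Cxcl5*, *Saa3*, *Slpi*, *Crabp1* and *Il1b*, which include a chemokine for neutrophils, an acute phase protein and a cytokine of inflammation. *Saa3* read 15575 and 19345 CPM against 132 and 169.6 (7.0 on the log2 scale, edgeR adjusted p = 0.000387). *Slpi*, an inhibitor of neutrophil proteases, read 11201 and 7594 against 96.7 and 104 CPM. It rose by 9.25 among members without other markers (edgeR adjusted p = 2.33e-06), a filter that held no neutrophil gene. The largest falls were those of *Retnla*, *Ncmap*, *Flg2*, *Lor* and *Ackr1*, with *Retnla* at 97.2 and 32.3 CPM against 3403 and 5022.

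Within each wound, members within 1 mm of the broken stretch were compared with members farther away. This zone was chosen after the values had been seen, and no test was run, so the values are a description. There were 223 and 205 members in the Control wound, 210 and 491 in PITX1+ wound 1, and 317 and 1089 in PITX1+ wound 2. Of 151 genes with at least 30 transcripts in each wound, 41 differed in the same direction in the 3 wounds and 110 did not, so a shared direction alone says little. *Igf2*, a growth factor raised in regenerating muscle, was higher near the break in each: 10923 against 4961 CPM, 5213 against 1563 and 10684 against 1239.5, log2 differences of 1.13, 1.71 and 3.06. The other cells were higher there too, at 3146 against 599 CPM, 1449.7 against 211 and 561 against 133. *Erbb3*, a receptor of neuregulin on Schwann and muscle cells, was higher near the break by 1.13, 1.47 and 2.64, from 11 to 46 transcripts in each zone. In the other cells it did not share that direction in the first 2 wounds, with 1351 against 1585 CPM and 387 against 535.

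*Ncam1*, which regenerating and denervated fibres carry, was higher near the break by 0.92, 0.12 and 1.36, so that PITX1+ wound 1 hardly differed. The other cells were higher there too, at 2402 against 555 CPM, 1508 against 506 and 1038 against 592. *Fgfr4*, the satellite cell receptor, was higher in each wound on 11 to 42 transcripts per zone, at 833 against 551 CPM, 695 against 231 and 556 against 461. The other cells went the same way, at 506 against 446 CPM, 335 against 153 and 126 against 95.9. *Spp1*, a matrix cytokine of macrophages and of injured muscle, was higher by 2.20, 3.12 and 0.61, and in the other cells it read 2272 against 964 CPM, 7722 against 2499 and 11369 against 9502. Of the rest of the satellite cell list, *Sdc4* differed by −0.39, −0.18 and 0.39 and *Notch1* by 0.37, 0.07 and 0.18. *Cd34* (−0.24, −0.10 and −0.07) and *Rtn4* (−0.00, −0.15 and −0.14) were close to equal in both zones. *Timp3*, *Rora* and *Barx2* were lower near the break in each wound, *Timp3* by 0.74, 1.02 and 0.65 on the log2 scale. Members without other markers were few, with 12 near the break and 21 farther off in the Control wound, 17 and 54 in PITX1+ wound 1, and 27 and 158 in PITX1+ wound 2. Among them *Igf2* was at 20389 against 9537 CPM, 3102 against 1467 and 8379.9 against 1410.4, from 22 and 7, 3 and 5, and 12 and 11 transcripts. *Ncam1* was at 25950 against 9537 CPM, 9307 against 8216 and 9777 against 7693. *Erbb3*, at 6 and 1, 1 and 2, and 2 and 3 transcripts, *Fgfr4* and *Spp1* had too few transcripts there to give a direction. *Timp3* turned direction in the Control wound and PITX1+ wound 2, and *Barx2* and *Rora* did in PITX1+ wound 1.

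**Figure D5:**
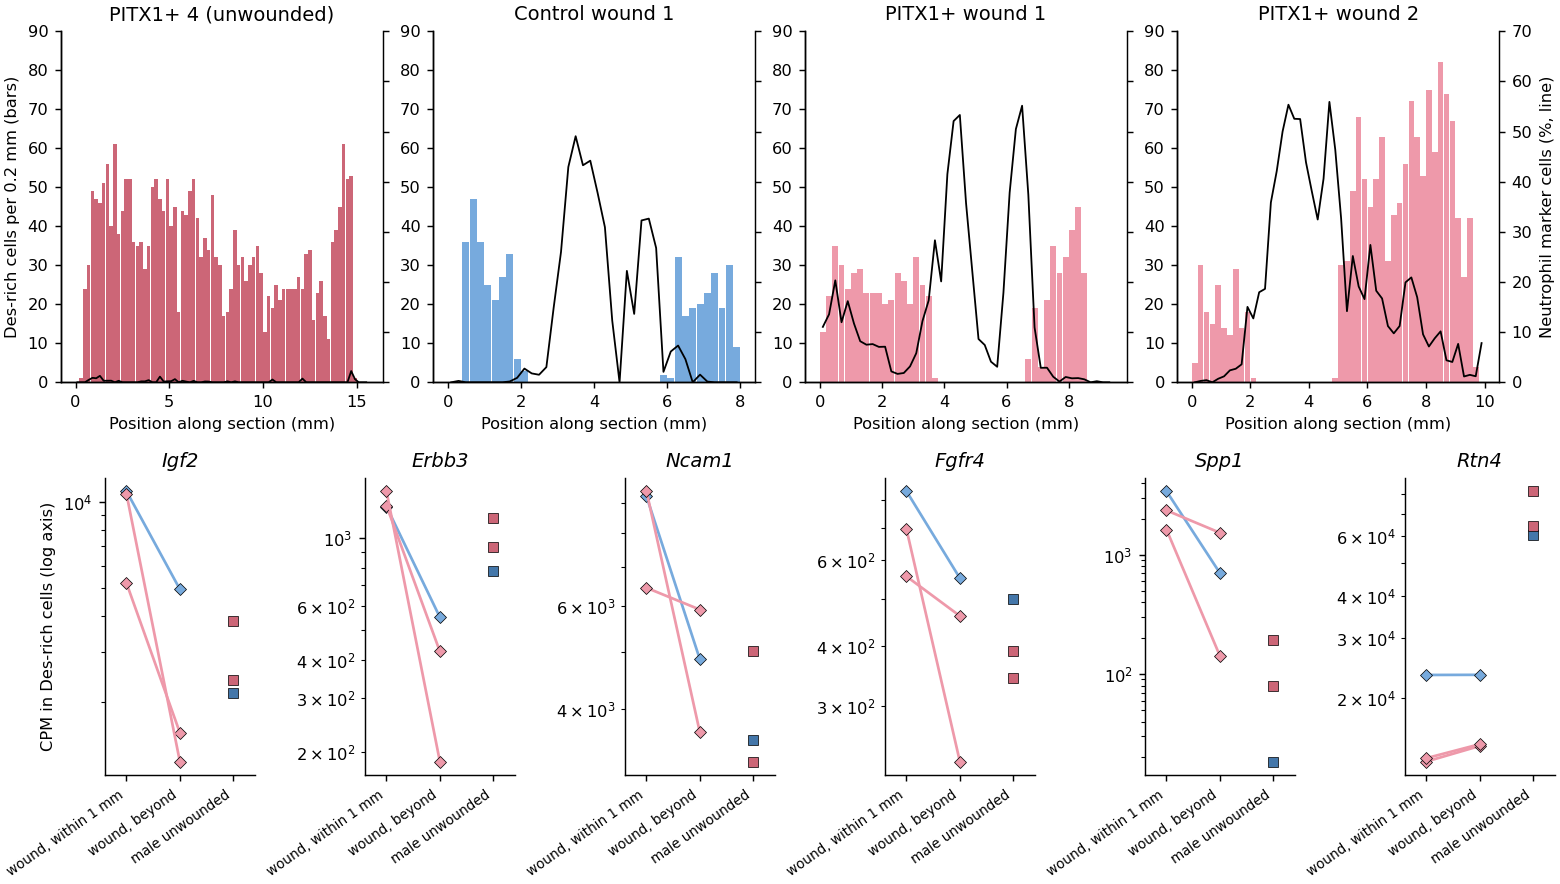
Upper row: *Des*-rich cells per 0.2 mm of section (bars) and share of neutrophil marker cells (line, %) along an unwounded section and the 3 wounds. Lower row: CPM (log axis) of selected genes in *Des*-rich cells within 1 mm of the broken stretch, beyond it, and in male unwounded skin, with 1 line per wound. The bars drop to near 0 where the neutrophil line is highest, and *Igf2* is higher within 1 mm in each of the 3 wounds.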

How the data were processed

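Transcripts of a custom gene panel were read with Xenium in 5 µm sections on 4 slides. The deposited tables hold counts of transcripts per cell, a quality score for each transcript, and positions and outlines as the authors' instrument wrote them. The segmentation software and its version are not given in the sources used here. Counting again per cell at quality scores from 20 upwards gave counts equal to the deposited ones in 100% of 515791 cells. Cells within 100 µm (wounded slide 200 µm) were chained into 17 sections of at least 2000 cells. Pairs of slides shared 1 to 7 cell identifiers. The condition of each section follows its order on the slide.

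Counts of members were summed per section. Genes were tested with edgeR 4.0.16 (filterByExpr, TMM, quasi-likelihood test, R 4.3.3), with slide as covariate between skin conditions, and DESeq2 1.42.0 was an alternative. Shares were compared by exact permutation over sections without regard to slide, and paired measures by exact sign flips (scipy 1.17.1). Cell types needed at least 2 transcripts of a marker list and more than of any other list. Genes were named as the 5 largest changes per direction without overlap, the 15 highest levels, and examples of the gene lists. Other genes were chosen after their values were seen. Members and lists were chosen with earlier results of these data known. Counts of 324 genes were simulated with the same spread for every gene. In them edgeR recovered 81.6% of log2 changes of 2 for buccal against Control, 88.0% against PITX1+ skin and 89.9% for the wounds. Of log2 changes of 1 it recovered 21.0%, 18.3% and 25%, so most changes of that size were missed even there. Alternatives were the normalization, the gene filter, the *Des* minimum, nuclear transcripts, members without other markers and leaving out sections.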

Additional observations from a re-analysis of the deposited data

Results flagged for a closer look

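Dixon's test for a sample far from its group picked out 14 values in 106 groups of 4 to 7 sections, where chance gives about 1 in 20. Buccal 3, the smallest cheek section, gave 5: 11.6% of its *Des* transcripts lay outside cell outlines, its *Des*-rich cells had a median area of 396 µm², and *Krt77* (99.7 CPM), *Rxra* (11128 CPM) and *Timp3* (33285 CPM) were high. Buccal 6 gave 4, all genes of epithelium or inflammation: *Krt1* (91.4 CPM), *Krt6a* (1401 CPM), *Lor* (4356 CPM) and *Saa3* (30.5 CPM). PITX1+ 1 gave 3, with *Krt1* at 1059.7 CPM, *Krt6a* at 465 CPM and *Saa3* at 16361 CPM. *Col7a1* in Buccal 2 (888 CPM) and *Vim* in PITX1+ 2 (51404 CPM) were the others.

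By the interaction term in edgeR, the difference between PITX1+ and Control sections changed with the slide for *Cntfr*, *Mmp3* and *Ccn1*. The terms were 4.00, −2.91 and −2.30 on the log2 scale, male minus female. *Pitx1* was not clearly raised in the female PITX1+ sections. Sex and slide cannot be told apart here.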

How the results depend on the processing

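No paired analysis was possible because, between groups, the labels share only 1 replicate number and the sections carry none; the paired differences below are within sections. Among members without other markers the numbers of genes called were 46 (buccal against Control), 42 (buccal against PITX1+) and 45 (PITX1+ wounds). PITX1+ against Control gave 1 gene from transcripts over the nucleus and 17 without the female slide. Leaving out 1 section at a time gave 53 to 176, 0 to 6, 77 to 103 and 0 to 140 genes for buccal against Control, PITX1+ against Control, buccal against PITX1+ and the wounds, with 57 without Control 2, 62 without Buccal 4 or Buccal 5, and 39 in the wounds without PITX1+ 3. Scaling by library size shifted the median of all genes by −0.36, −0.26, −0.13 and −0.18 on the log2 scale.

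Buccal sections exceeded Control by 995.5 *Des*-rich cells per mm² and by 500.2 per mm of length, and PITX1+ sections by 20.3 percentage points without the female slide (adjusted exact permutation p = 0.0556). Without 1 section at a time the share differences were 14.9 to 19.1 (buccal against Control), −7.86 to −5.50 (PITX1+ against Control) and 21.3 to 25.4 points (buccal against PITX1+). The last was 21.9, 21.8, 22.6 and 24.2 without PITX1+ 1, 2, 3 and 4, each with an adjusted exact permutation p of 0.05. The paired differences were 63.1 to 73.5 µm for distance to keratinocytes, 0.22 to 0.27 for nuclear elongation, 4.60 to 5.40 points for *Des* outside outlines and −24.1 to −23.0 points for *Des* over the nucleus, with 7 to 9 cell types past the threshold. With keratinocytes left out of the shares, 4 types passed and fibroblasts turned to −6.49 points, and 3 types and −2.88 points without *Des* and *Abcc9* as well. The axis ratio turned to −0.0768 for cell outlines, and 65.6% of the 12 nearest cells were members.

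Of single genes, *Cidea* turned to −0.0925 over the nucleus, *Itga1* to −0.0323 and *Vwf* to −0.41 without other markers, and *Pf4* to 2.89 without Control 3, all in buccal against Control. *Ccn1* (−0.99), *Flg* (8.60, against 0 transcripts in Control 3) and *Gpx3* (−0.80) turned in PITX1+ against Control and *Palld* (−0.76) in buccal against PITX1+ without the female slide, and *Mcpt4* (0.52) in the wounds without other markers. The cause was not tested. Sections number from 1 (Control wound) to 7 per group, which limits the precision.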
